A study of Homo sapiens with 15 samples.

Results

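The loops analysed here start at the promoters of FOXA1, MIPOL1 and TTC6, neighbouring genes on chromosome 14. A loop was taken when a 1 kb anchor overlapped the window that reaches 2.5 kb up- and downstream from where a gene's canonical transcript starts, which gave 126 of the 505995 different loops in the tables: 36 at FOXA1, 65 at MIPOL1 and 63 at TTC6. LNCaP cells, an androgen-responsive prostate cancer line, were kept in charcoal-stripped serum for 3 days and then given ethanol vehicle (0 m) or 10 nM dihydrotestosterone (DHT), an androgen, and collected after 30 m or 4 h, or later at 16 h and 72 h. HiChIP joins proximity ligation with immunoprecipitation, here of H3K27ac, a mark of active enhancers and promoters, or H3K4me3, a mark of active promoters. The labels name 10 H3K27ac samples, 2 at each time, and 5 H3K4me3 samples, 1 at each time, but each of the 10 tables holds 1 contact value per loop, so no difference below has a replicate check and no test was run. All groups are a single cell line in stripped serum. Series of 5 values below are in time order from 0 m to 72 h, and series of 4 from 30 m to 72 h.

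FOXA1 encodes a forkhead pioneer factor that opens chromatin at enhancers of prostate and other epithelial cells. TTC6 starts next to FOXA1 and is read the other way, and MIPOL1 lies beside them, with its last exons nearest to FOXA1. Enhancers of FOXA1 have been placed inside MIPOL1 and TTC6, the domain is recurrently rearranged in prostate cancer, and LNCaP is known to carry an ETV1 insertion in a MIPOL1 intron. Reads were aligned to the reference order, and all 574817 rows of a table join anchors on the same chromosome, so contacts of a rearranged allele were not separated here.

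In hg19 the FOXA1 transcript starts at 38064454 on the minus strand and the TTC6 transcript at 38064834 on the plus strand. The starts are 380 bases apart and lie in the same 5 kb bin, whose middle 1 kb is the deposited anchor chr14:38062001-38063000, in FOXA1 intron 1. All 36 FOXA1 loops were therefore also TTC6 loops (100% of the FOXA1 loops and 57.1% of the TTC6 loops), and contacts of the FOXA1 and TTC6 starts cannot be told apart in them. The other 27 TTC6 loops came from the next anchor, chr14:38067001-38068000, in TTC6 intron 1. The MIPOL1 start, 37667142 on the plus strand, is 397.3 kb away and its anchor is chr14:37667001-37668000.

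The stretches before the FOXA1 and TTC6 starts are shown because they overlap. They are the 250 bases upstream of each start in RefSeq (GRCh38.p14), FOXA1 on the minus strand at chr14:37595250-37595499 and TTC6 on the plus strand at chr14:37595379-37595628. Part of the FOXA1 stretch lies in an annotated exon of another FOXA1 transcript, which starts further upstream and has no defined coding sequence. Capitals mark the 121 bases that are the same DNA read from opposite strands.
FOXA1: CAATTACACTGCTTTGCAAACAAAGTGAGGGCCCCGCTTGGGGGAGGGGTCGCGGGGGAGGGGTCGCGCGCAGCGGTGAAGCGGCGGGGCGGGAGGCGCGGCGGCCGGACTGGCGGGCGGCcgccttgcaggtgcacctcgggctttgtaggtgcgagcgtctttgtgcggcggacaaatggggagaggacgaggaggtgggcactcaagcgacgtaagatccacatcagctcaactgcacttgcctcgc
TTC6: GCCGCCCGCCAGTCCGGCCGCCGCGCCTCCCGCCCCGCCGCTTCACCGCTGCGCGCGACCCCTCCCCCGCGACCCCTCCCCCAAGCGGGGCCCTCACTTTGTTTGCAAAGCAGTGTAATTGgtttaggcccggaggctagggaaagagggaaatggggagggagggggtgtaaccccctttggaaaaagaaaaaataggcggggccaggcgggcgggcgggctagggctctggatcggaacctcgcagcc
Both are rich in G and C, at 67.2% and 68.4%. The shared stretch holds the single match of either to a loose forkhead motif, TGTTTNC on either strand, which 18.0% of the 35116 RefSeq promoter entries (300 bases each, 50 of them past the start) hold. The MIPOL1 entry has none.

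Most partners of FOXA1 lay inside MIPOL1. Of its 36 loops, 24 led to the MIPOL1 gene (37667099 to 38048330), 25 to 375 kb from the FOXA1 anchor, 1 to the MIPOL1 promoter, 6 to anchors beyond it, towards SLC25A21, 4 into TTC6 and 1 to the neighbouring bin. FOXA1 thus had 31 loops longer than 5 kb towards MIPOL1 and beyond, and 4 in the TTC6 direction. A match to the loose forkhead motif is shown at a strong partner anchor in a MIPOL1 intron, in GRCh37 (hg19). The match is in capitals and read on its own strand. The same anchor also held TGTTTTC, which is not shown.
Anchor 175 kb from FOXA1, intron 10, chr14:37887108-37887174, plus strand: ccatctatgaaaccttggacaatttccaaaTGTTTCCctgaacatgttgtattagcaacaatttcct
Such matches are common: 23 of the 36 FOXA1 partner anchors (63.9%) held TGTTTNC, against 59.1% of all 210061 different anchors. The stricter TGTTTAC was in 6 of 36 (16.7%), against 14.5%. Of the 24 in the MIPOL1 gene, 19 held TGTTTNC (79.2%) and 3 held TGTTTAC (12.5%). A full androgen response element, AGNACA and TGTNCT with 3 bases between them, was in none of the 36 and in 0.156% of all anchors, and a CTCF core, CCNCNAG followed directly by GNGGC, was in none and in 0.863%. Both strands were searched. Over whole 5 kb bins, 0 of 36 held the androgen element, against 0.851% of all, and 1 held the CTCF core (2.78%, against 4.14%). Of the MIPOL1 partner bins 2 of 65 held the androgen element (3.08%). Of the partner bins of the other TTC6 anchor 1 of 26 did (3.85%).

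The FOXA1 bin was among the strongest coding promoters for H3K27ac. Its summed H3K27ac contact, averaged over the 5 times, was 272.34 TMM-scaled read pairs, above 99.7% of the 16259 coding promoters with a loop, while its H3K4me3 contact of 60.11 was above 62.9%. The ratio of H3K27ac to H3K4me3 contact at 0 m was 5.68 (95% counting interval 4.77 to 6.80), against a median of 0.522 over 10660 promoters. With DHT it was 3.38, 1.82, 9.20 and 6.07, above at least 97.7% of promoters at each time. The ratio was 2.88 at 0 m at KLK3, which encodes prostate-specific antigen, and 1.84 at HOXB13, a prostate homeobox gene. At 4 h KLK3 at 4.55 was above FOXA1, and HOXB13 at 1.84 did not differ from it beyond counting error. At MIPOL1 it was 0.911 at 0 m (0.751 to 1.11), above 83.6% of promoters, and 0.368 at 4 h, above 34.1%. The marks were scaled separately, so the ratio is only a place among promoters.

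Of 11 marker promoters used to check the cell type, the luminal genes KLK3, KLK2, HOXB13 and TMPRSS2 stood above 91.5% to 99.9% of promoters in H3K27ac contact. The basal genes KRT5, KRT14 and TP63 and the blood gene PTPRC had 0 loops, while blood CD3E had 5 and the liver genes ALB and APOA1 had 2 and 15. Read pairs over all loops ranged from 2475168 to 4308555 in the H3K27ac tables and from 2153262 to 10675614 in the H3K4me3 tables. The largest was H3K4me3 at 4 h, so H3K4me3 values are most precise there.

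FOXA1 H3K27ac contact fell early and rose late. Summed over the 36 loops it was 241.84, 191.63, 183.11, 398.29 and 346.82, from 823, 1065, 857, 1876 and 1318 read pairs. The intervals at 30 m and 4 h lay below that at 0 m, and those at 16 h and 72 h lay above it. Against 0 m the log2 change was -0.34 (95% counting interval -0.47 to -0.20), -0.40 (-0.54 to -0.26), 0.72 (0.60 to 0.84) and 0.52 (0.39 to 0.65). The contact of all loops together changed by 0.09, 0.07, 0.25 and 0.17 at these times. With every table set to the same total, the FOXA1 changes were -0.43, -0.47, 0.47 and 0.35.

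FOXA1 H3K4me3 contact instead peaked at 4 h. It was 42.59, 56.70, 100.78, 43.30 and 57.17, from 151, 166, 1272, 224 and 208 read pairs. The value at 4 h stood clear of all the others and that at 16 h matched 0 m within counting error. The log2 changes were 0.41 (0.09 to 0.74), 1.24 (0.998 to 1.496), 0.02 (-0.28 to 0.33) and 0.42 (0.12 to 0.74). At equal totals they were 0.39, 1.02, -0.11 and 0.55.

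At its canonical start MIPOL1, whose product is a coiled-coil protein, rose in both marks. Its H3K27ac contact over 65 loops was 59.36, 77.91, 46.58, 128.44 and 107.62, with log2 changes of 0.39 (0.15 to 0.64), -0.35 (-0.63 to -0.07), 1.11 (0.88 to 1.35) and 0.86 (0.61 to 1.11). Its lowest value was at 4 h, as at FOXA1, but it had no fall at 30 m. Its H3K4me3 contact was 65.15, 77.88, 126.45, 98.58 and 71.46, with changes of 0.26 (-0.01 to 0.53), 0.96 (0.76 to 1.16), 0.60 (0.37 to 0.83) and 0.13 (-0.13 to 0.40). At 16 h MIPOL1 was above its H3K4me3 contact at 0 m. With the starts of all its transcripts (95 loops) the changes at 16 h were 0.25 in H3K27ac and 0.62 in H3K4me3. All loops together changed by 0.25 and 0.14. At 16 h an H3K27ac rise beyond that of all loops thus held for the canonical start alone.

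TTC6, over its 63 loops, had an H3K27ac contact of 271.22, 225.10, 212.59, 435.23 and 391.29 and an H3K4me3 contact of 61.48, 73.44, 120.51, 60.31 and 79.71. Its log2 changes at 16 h were 0.68 (0.57 to 0.80) in H3K27ac and -0.03 (-0.28 to 0.23) in H3K4me3. It had the course of FOXA1, with which it shares most of its contact.

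**Figure D1:**
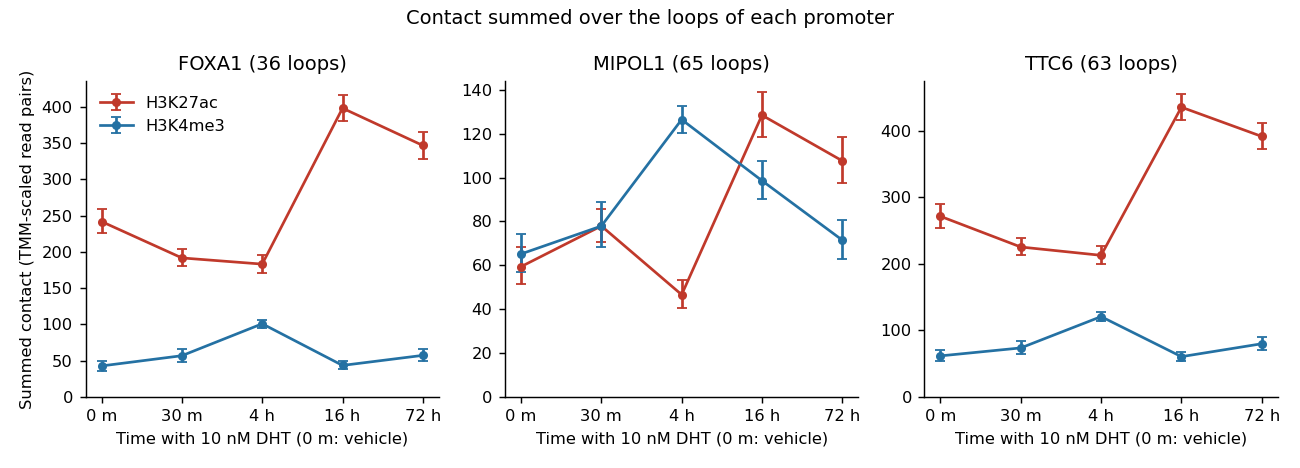
Summed contact (vertical axis, TMM-scaled read pairs) of the FOXA1, MIPOL1 and TTC6 promoters at the 5 times (horizontal axis, evenly spaced, not to scale), with 95% Poisson counting intervals as bars. H3K27ac (red) was highest at 16 h in all 3 promoters and H3K4me3 (blue) at 4 h, and FOXA1 and TTC6 look alike because they share 36 loops.

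Set beside all coding promoters with at least 200 read pairs over both times, FOXA1 went against the general direction at 30 m. Only 4.37% of 7902 promoters had a lower H3K27ac change at 30 m, where the median was 0.33, and 2.39% of 7063 did at 4 h, where it was 0.03. At 16 h FOXA1 stood above 86.2% of 7182 promoters (median 0.27) and MIPOL1 above 96.9%. In H3K4me3 at 4 h, FOXA1 stood above 99.0% and MIPOL1 above 97.3% of 11224 promoters (median 0.24). At 72 h, where the median H3K4me3 change was -0.18, FOXA1 stood above 98.9% of 8984 promoters. At 16 h MIPOL1 stood above 98.2% of 9823 promoters in H3K4me3 and FOXA1 above 32.6%.

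Counted by a change of at least 1.5-fold, all 3 promoters were higher in H3K27ac at 16 h, as were 22.7% of all promoters, and all 3 were higher in H3K4me3 at 4 h, as were 14.1%. At 16 h the H3K27ac log2 changes of FOXA1 and TTC6 fell below this limit at equal totals (0.47 and 0.44) and without the neighbouring bin (0.34 in both), and that of MIPOL1 did with the starts of all its transcripts (0.25). In H3K27ac at 72 h only MIPOL1 passed (20.7% of all), and in H3K4me3 at 16 h only MIPOL1 passed (1.93% of all), by a small margin that was lost at equal totals (log2 change 0.46), with loops of the H3K4me3 set (0.56), with pairs in both sets counted as listed (0.57) and without the neighbouring bin (0.58). No member passed in either direction in H3K27ac at 30 m, where 21.6% of promoters were higher and 1.51% lower, or at 4 h, where 1.02% were higher and 0.368% lower, though without the neighbouring bin FOXA1 passed downwards at 30 m (-0.68). None was lower in H3K27ac at 16 h or 72 h (2.39% and 2.42% of all). In H3K4me3 none passed at 30 m (0.205% higher and 0.353% lower) or 72 h (0.312% higher and 5.37% lower), and none was lower at 4 h or 16 h (1.13% and 0.102%). Without the neighbouring bin FOXA1 passed upwards in H3K4me3 at 72 h (0.72, 0.33 to 1.13).

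The H3K4me3 rise at 4 h went with the balance of the marks. All 3 members were in the 20% of promoters with the highest H3K27ac to H3K4me3 ratio (computed without 0 m and 4 h), whose median change at 4 h was 0.39, with 0.90 as its 90th percentile, against a median of 0.12 in the 20% with the lowest ratio. FOXA1 at 1.24 and MIPOL1 at 0.96 were above that percentile. The part of mark balance, and of the depth of the 4 h table, in the rise was not tested.

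**Figure D2:**
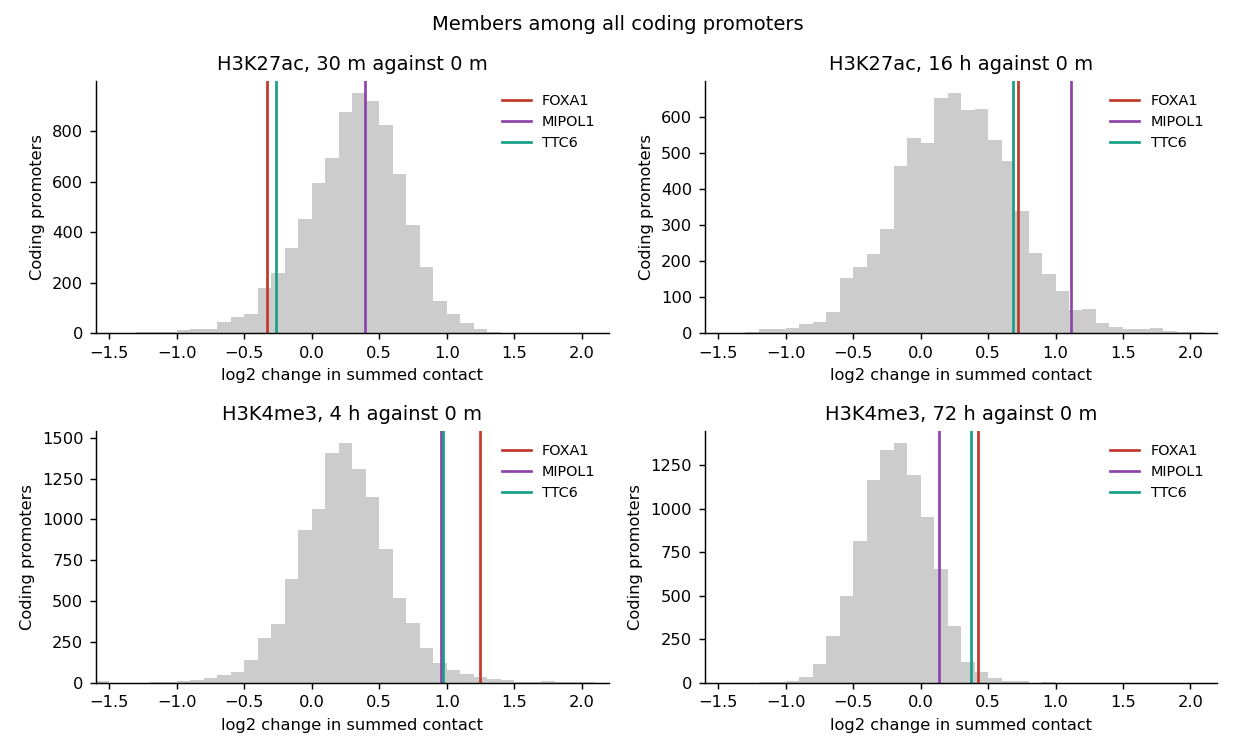
Number of coding promoters (vertical axis) by log2 change in summed contact from 0 m (horizontal axis, bins of 0.1) in grey, with FOXA1, MIPOL1 and TTC6 as lines. FOXA1 lies in the low tail at 30 m in H3K27ac and in the high tail at 4 h and 72 h in H3K4me3, and MIPOL1 lies farthest right at 16 h in H3K27ac.

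The FOXA1 total combined loops that moved differently. The loop between the FOXA1 anchor and the neighbouring bin, 5 kb away in TTC6 intron 1, carried 39.1% of the mean H3K27ac contact. It had 61.41, 78.63, 47.65, 169.21 and 176.04, a log2 change of 1.46 (1.24 to 1.69) at 16 h and of 1.52 (1.29 to 1.75) at 72 h. It was low at the 3 early times and high at both late ones. All 28409 loops between neighbouring bins changed together by 0.69 at 16 h and 0.50 at 72 h, less than this loop. In H3K4me3 it had 18.61, 24.25, 43.10, 16.04 and 17.59.

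The 24 loops into the MIPOL1 gene carried most of the rest. Together they had an H3K27ac contact of 163.97, 96.99, 126.06, 203.60 and 141.31. Their log2 change was -0.76 (-0.93 to -0.58), -0.38 (-0.55 to -0.21), 0.31 (0.16 to 0.47) and -0.21 (-0.39 to -0.04). The loops thus lost contact at 30 m, exceeded 0 m at 16 h and were below it again at 72 h. At equal totals the change at 16 h was 0.07 and that at 30 m was -0.85. The 353302 loops of 25 to 490 kb in the tables changed by -0.04, -0.06, -0.03 and -0.04 at the 4 times.

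Shares of read pairs within a table do not depend on its scaling. The neighbouring bin took 25.4% of the FOXA1 H3K27ac read pairs (95% exact binomial interval 22.5 to 28.5), 41.0% (38.1 to 44.1), 26.0% (23.1 to 29.1), 42.5% (40.2 to 44.8) and 50.8% (48.0 to 53.5). The MIPOL1 gene took 67.8%, 50.6%, 68.8%, 51.1% and 40.7%. The balance at 4 h was thus that of 0 m, and the other times held a larger share next to the promoter. Over all loops, neighbouring bins took 29.9%, 34.2%, 34.2%, 40.5% and 37.6%.

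Without the neighbouring bin, FOXA1 changed by -0.68 (-0.84 to -0.51) at 30 m and by 0.34 (0.20 to 0.49) at 16 h in H3K27ac. Measured the same way, 1.29% of 6519 promoters had a lower change at 30 m, and FOXA1 stood above 68.4% of 5686 at 16 h. The change at 72 h was -0.08 (-0.24 to 0.08), against 0.52 with the neighbouring bin. In H3K4me3 at 4 h it was 1.27 (0.94 to 1.61), above 99.4% of 10432 promoters.

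**Figure D3:**
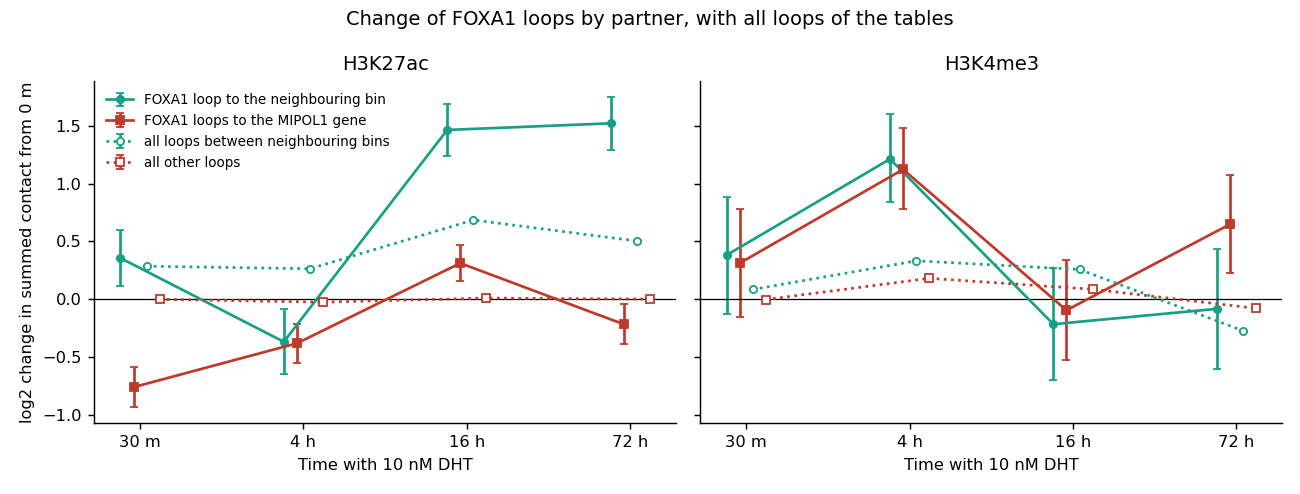
log2 change in summed contact from 0 m (vertical axis) at the 4 times with DHT, for the FOXA1 loop to the neighbouring bin, the 24 FOXA1 loops into the MIPOL1 gene, and all loops of the tables split the same way (dotted), with 95% counting intervals as bars. In H3K27ac the solid lines part at 30 m, 16 h and 72 h, and in H3K4me3 both rise at 4 h.

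Among single loops, contact did not fade evenly with distance. The strongest beyond the neighbouring bin led to an anchor 45 kb away, chr14:38017001-38018000, at an exon with untranslated sequence of MIPOL1. Its H3K27ac contact was 20.57, 11.16, 20.73, 32.91 and 17.10. It was lowest at 30 m and highest at 16 h (log2 changes -0.88, -1.40 to -0.37, and 0.68, 0.26 to 1.11). The next led 345 kb away, to chr14:37717001-37718000, at an exon of MIPOL1 with coding and untranslated sequence. It had 23.51, 11.34, 14.53, 27.39 and 20.26, and its mean was 34.9 times that of all loops of its length. Its change at 30 m was -1.05 (-1.55 to -0.56).

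The anchor 175 kb away, in MIPOL1 intron 10 (chr14:37887001-37888000, the anchor whose sequence is shown), had 19.39, 10.26, 14.53, 26.75 and 18.68, a mean 21.2 times that of its length. Its change was -0.92 (-1.46 to -0.39) at 30 m and 0.46 (0.02 to 0.92) at 16 h. The anchor 65 kb away in intron 12 had 11.17, 8.28, 11.75, 20.17 and 8.95, with a change of 0.85 (0.30 to 1.44) at 16 h. The anchor 160 kb away in intron 11 had 10.87, 7.74, 10.04, 16.35 and 11.58. The highest H3K27ac value of these 5 anchors was at 16 h and the lowest at 30 m, though several of the values do not differ beyond counting error. The change from 0 m had an interval clear of 0 at 30 m for the anchors at 45, 175 and 345 kb, and at 16 h for all but that at 345 kb (0.22, -0.19 to 0.64). The lower bounds at 16 h were only 0.005 at 160 kb and 0.02 at 175 kb. All loops together changed by 0.25 at 16 h, and those of 25 to 490 kb by -0.03. In H3K4me3 the same 5 loops had contacts of 1.41 to 2.82 at 0 m, from 5 to 10 read pairs, and of 2.38 to 6.73 at 4 h, from 30 to 85. A further FOXA1 loop, 330 kb long, had 5 H3K27ac read pairs at 0 m and 19 at 16 h, 2.75 times the contact (0.99 to 9.41).

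**Figure D4:**
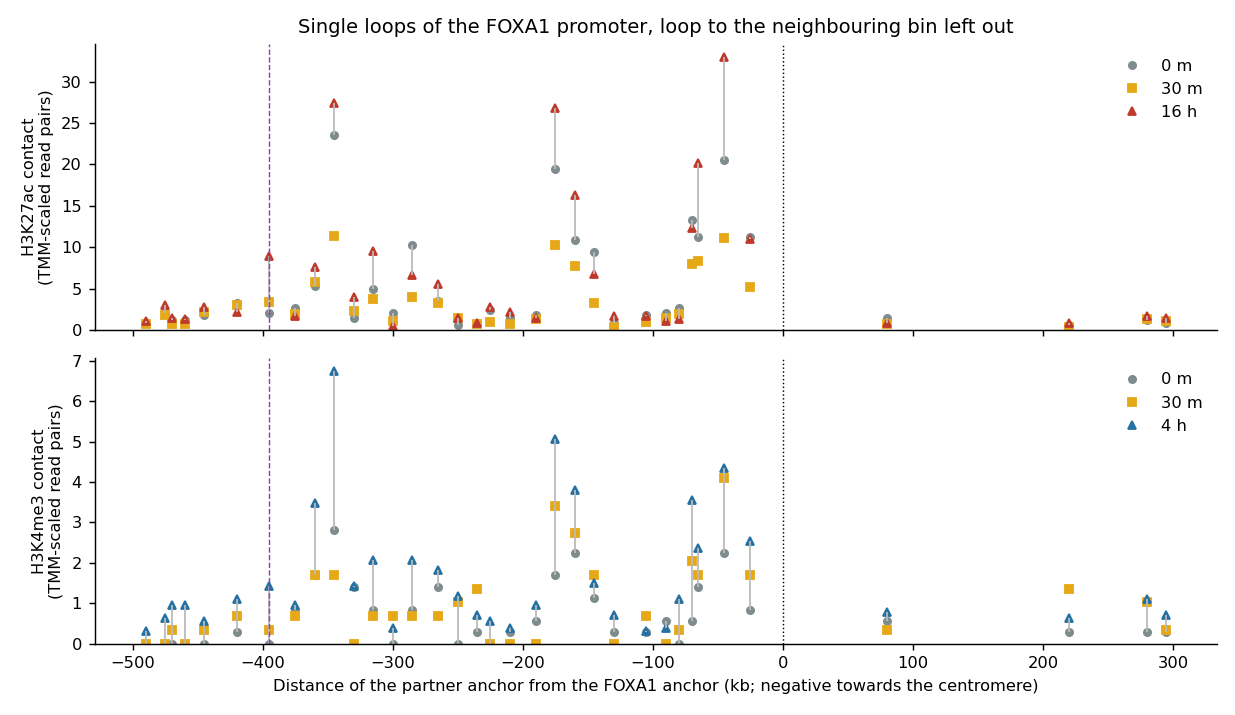
Contact of single FOXA1 loops (vertical axes, TMM-scaled read pairs, H3K27ac above and H3K4me3 below) by distance of the partner anchor from the FOXA1 anchor in kb (horizontal axis), without the loop to the neighbouring bin. Grey circles are 0 m, yellow squares 30 m and triangles 16 h for H3K27ac and 4 h for H3K4me3; grey bars join 0 m to the triangle, and the dashed line is the MIPOL1 promoter. Peaks at 45, 175 and 345 kb were lower at 30 m than at 0 m in H3K27ac. Those at 45 kb and, only just beyond counting error, 175 kb were higher at 16 h.

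The loop that joins the FOXA1 and MIPOL1 promoters, 395 kb long, was weak at 0 m and gained late. It had 7, 19, 5, 42 and 26 H3K27ac read pairs, a contact of 2.06, 3.42, 1.07, 8.92 and 6.84. The contact at 16 h was 4.34 times that at 0 m (1.93 to 11.4) and that at 72 h 3.33 times (1.41 to 9.08). In H3K4me3 it had 0 read pairs at 0 m, where a floor of 3 read pairs is a contact of 0.846, then 1, 18, 10 and 1. The loop from the MIPOL1 promoter to the next bin, at TTC6 intron 1, had 4, 9, 7, 31 and 13 H3K27ac read pairs, 5.60 times as much contact at 16 h as at 0 m (1.98 to 21.8). Both loops thus had their highest H3K27ac contact at 16 h. The MIPOL1 loop to an anchor 370 kb away, 25 kb from that of FOXA1, had 2 read pairs at 0 m and 20 at 16 h, 7.23 times the contact (1.76 to 63.7).

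MIPOL1 had a different set of partners. Of its 65 loops 39 led away from the FOXA1 side, and 36 of those were in the H3K4me3 loop set and 9 in the H3K27ac set. A further 21 led into the MIPOL1 gene, 3 into TTC6 and 2 to the FOXA1 and TTC6 promoters. By mean contact its leading loop joined the neighbouring bin, with H3K27ac read pairs of 35, 112, 52, 158 and 106 and a log2 change of 1.71 (1.17 to 2.28) at 16 h. The next led 25 kb away to the SLC25A21 promoter, at the antisense gene SLC25A21-AS1. SLC25A21 encodes a mitochondrial carrier. That loop had an H3K27ac contact of 4.70, 10.62, 5.13, 15.29 and 16.58, and rose at 30 m (log2 1.18, 0.36 to 2.07), 16 h (1.70, 0.91 to 2.58) and 72 h (1.82, 1.01 to 2.71), but not at 4 h. Its H3K4me3 contact was 6.20, 7.17, 15.69, 9.47 and 7.70. The highest value was again that at 4 h. The loops of 10, 20 and 25 kb that complete the 5 strongest in H3K4me3 had mean contacts of 10.28, 6.25 and 3.43 in that mark. Among the MIPOL1 loops with at least 20 read pairs over both times, the only one at least 2-fold higher in H3K4me3 at 16 h led to an anchor 35 kb away, with 5 read pairs at 0 m and 17 at 16 h, and its interval of 0.83 to 8.08 times took in 1.

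The 21 MIPOL1 loops into its own gene changed by 1.12 (0.81 to 1.44) in H3K27ac at 16 h, and the 39 on the far side by 0.81 (0.41 to 1.22), so that the intervals overlap. MIPOL1 and FOXA1 shared 18 partner anchors, which is 18 of 36 for FOXA1 and 18 of 65 for MIPOL1. At the anchor 345 kb from FOXA1 MIPOL1 had no loop in the tables, and at the one in intron 10 its mean H3K27ac contact was 2.07 against 17.92 from FOXA1.

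**Figure D5:**
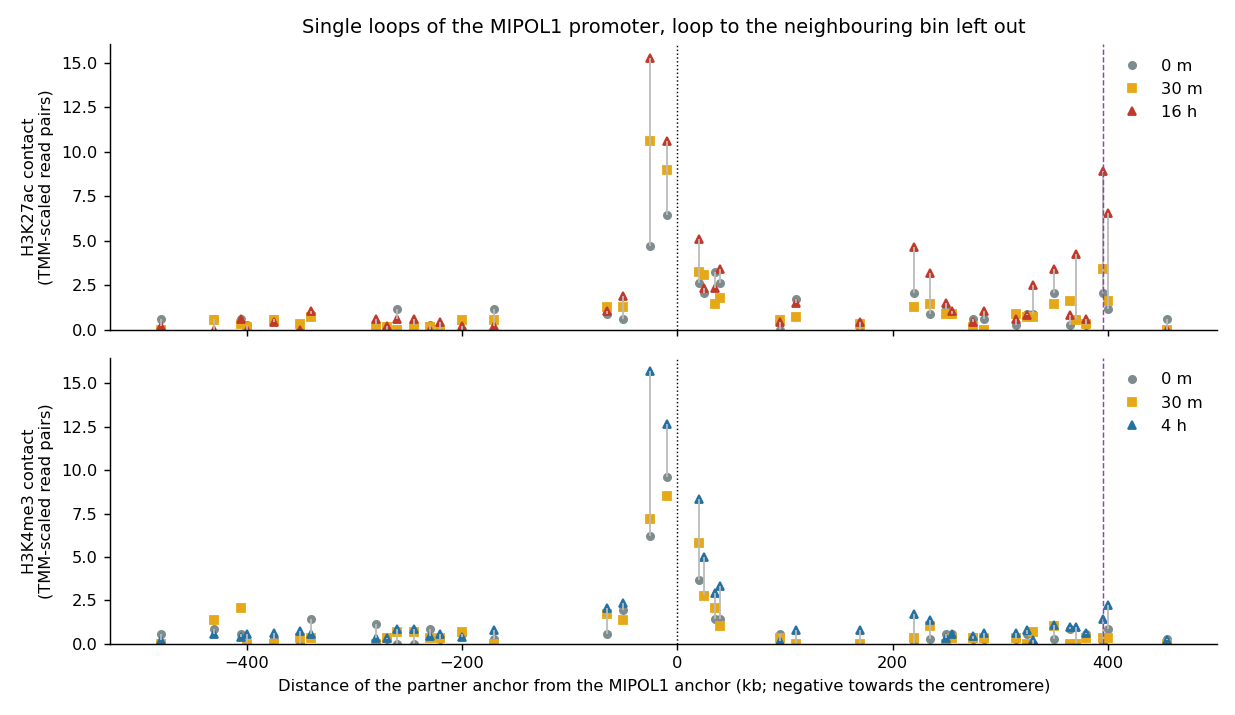
Contact of single MIPOL1 loops (vertical axes, TMM-scaled read pairs, H3K27ac above and H3K4me3 below) by distance of the partner anchor from the MIPOL1 anchor in kb (horizontal axis), for loops of up to 500 kb without the loop to the neighbouring bin, with symbols as for FOXA1. The dashed line is the FOXA1 promoter. The partner with the highest mean H3K27ac contact is the SLC25A21 promoter 25 kb away, with an H3K27ac contact of 4.70 at 0 m and 15.29 at 16 h, and a second rise in H3K27ac stands near FOXA1 at 395 kb.

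TTC6 encodes a protein with tetratricopeptide repeats, and 27 of its loops came from the neighbouring bin and were not loops of FOXA1. One of them led to the MIPOL1 promoter and counts for both. With a window of 5 kb FOXA1 took in all 63 TTC6 loops, so the split rests on the narrower window. Together they had an H3K27ac contact of 29.38, 33.47, 29.49, 36.94 and 44.47, and only the change at 72 h, 0.60 (0.23 to 0.97), had an interval clear of 0. Of the 27, 18 led into TTC6 itself. Their H3K27ac contact was 23.21, 20.51, 23.08, 21.02 and 27.63, with every interval of change across 0. In H3K4me3 at 4 h the 27 together changed by 0.06 (-0.33 to 0.47), the 18 into TTC6 by -0.53 (-0.99 to -0.06), and the 4 that led past MIPOL1 by 2.12 (0.69 to 4.04), from 4 to 62 read pairs. These 4, to anchors of 425 kb or more, had 10, 46, 16, 39 and 43 H3K27ac read pairs, a change of 1.49 at both 30 m (0.49 to 2.65) and 16 h (0.47 to 2.66) and of 1.95 at 72 h, with a lower bound of 0.93. Much of this came from 1 loop 530 kb long, with 4 read pairs before DHT and then 24 at 30 m and 31 at 16 h. At 72 h it had 29, a change of 2.70 (1.19 to 4.67). Without it the other 3 had 6, 22, 8, 8 and 14 H3K27ac read pairs, with a change at 16 h of -0.054 (-1.77 to 1.75), and the intervals at 30 m, at 72 h and in H3K4me3 at 4 h took in 0. Among member loops with at least 20 read pairs over both times, the only one at least 2-fold lower in H3K27ac at 16 h led 55 kb into TTC6, with 14 read pairs at 0 m and 6 at 16 h (log2 -1.69, -3.36 to -0.22).

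Counted loop by loop, with a change of at least 2-fold and 20 read pairs over both times, 9 of the 31 member loops that had the read pairs were higher in H3K27ac at 16 h (29.0%) and 1 was lower. Over all loops 18.3% were higher and 5.9% lower. With at least 50 read pairs the count was 3 of 15 (20%), below the 26.1% of all loops. MIPOL1 had 6 of 11 higher and FOXA1 3 of 18. The minimum drops most loops: 95 of the 126 had fewer read pairs. Of the 9 higher, 7 had under 20 read pairs at 0 m and 2 had intervals that took in no change. With 20 read pairs at 0 m alone, 2 of 12 were higher, against 16.6% of all such loops. At 30 m 5 of 25 were lower and 2 higher, against 6.02% and 10.7% of all loops, and 4 of those 5 were FOXA1 loops into MIPOL1, 25, 145, 285 and 345 kb long. At 4 h 1 of 20 was lower and 0 higher in H3K27ac (3.02% and 7.02% of all). At 72 h 6 of 23 were higher and 1 lower (15.4% and 6.61%).

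In H3K4me3 at 4 h, 18 of 27 member loops were higher (66.7%) and 0 lower, against 15.2% and 3.36% of all loops. By promoter, with shared loops counted at each, they were 8 of 14 at FOXA1, 8 of 11 at MIPOL1 and 11 of 17 at TTC6. Of the 18, 15 had under 20 read pairs at 0 m and passed the minimum through the 4 h table, and 9 had intervals that took in no change, so the count is no support for a rise. With 20 read pairs at 0 m alone, 3 of 4 were higher, against 3.17% of all such loops. Few had the read pairs at other times: 0 of 6 at 30 m, 1 of 8 at 16 h and 1 of 9 at 72 h were higher (3.15%, 6.5% and 2.4% of all), and 0 were lower (3.79%, 2.21% and 5.86%).

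Of 14 other genes of the region set as a list, 3 had a promoter at a partner anchor. SLC25A21 had 3 such loops. PAX9 and NKX2-8, developmental transcription factor genes farther out, had 1 each from MIPOL1, with 10 and 7 H3K27ac read pairs over all 5 times. NKX2-1, MBIP, RALGAPA1, BRMS1L, INSM2, SSTR1, CLEC14A, SEC23A, GEMIN2, TRAPPC6B and PNN had none.

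The coding promoters on other chromosomes whose 8 log2 changes (4 times, both marks) were nearest to those of FOXA1 were NFIA, SIPA1L2, SUGT1, NFIB and IRX5, at Euclidean distances of 0.70 to 0.77, against a median of 1.68 over 2003 promoters with at least 200 read pairs in every table. FOXA1 itself had 151 at 0 m in H3K4me3. NFIA, the nearest, had H3K27ac changes of -0.20, -0.45, 0.66 and 0.65 and an H3K4me3 change of 0.69 at 4 h.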

How the data were processed

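The authors mapped reads to hg19 with Trim Galore 0.5.0, HiC-Pro 3.1.0 and Bowtie2 and called loops per mark in 5 kb bins. The calls used the reads of all 5 times merged. The H3K4me3 loop set was thus chosen partly through the 4 h reads. The deposited tables hold contact signal per loop, scaled by TMM among the 5 times of a mark. All values (100%) were whole multiples of a step, within 1e-06, taken as 1 read pair. It is not stated whether both H3K27ac replicates entered a value, and p-values were not computed. Each anchor pair was counted once. Intervals are 95% exact Poisson, or exact conditional binomial for changes and shares. They cover counting error only, as each mark and time has 1 value per loop. Read pairs carry no molecular identifiers, and the paper states that duplicate reads were removed. Starts are of Gencode 44 canonical transcripts lifted to GRCh37. Named loops were, per promoter and mark, the 5 with the highest mean contact and up to 3 of the largest called changes at 16 h in each direction. Loops named for a role, such as promoter to promoter, were chosen after their values were seen. Members and lists were chosen with earlier results of these data known. Scripts (Python 3.11.15, scipy 1.17.1) were tested on simulated data. Some items of the lists are not reported here.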

Additional observations from a re-analysis of the deposited data

Results flagged for a closer look

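The marks moved in opposite directions, each beyond its counting interval, at 4 h in all 3 promoters and at 30 m in FOXA1. At 30 m the FOXA1 log2 change was -0.34 in H3K27ac against 0.41 in H3K4me3. At 4 h it was -0.40 against 1.24 for FOXA1, -0.35 against 0.96 for MIPOL1, and -0.35 against 0.97 for TTC6, which shares 36 loops with FOXA1. The difference between the marks was not tested, as each mark has 1 value per time and was scaled on its own.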

How the results depend on the processing

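No paired analysis was possible because each table holds 1 value per loop, so that replicate numbers could not be used and no replicate could be left out. Of 66 alternative values, 51 stayed within the counting interval (counts: within 1.5 times). Some of these could not differ, as the setting took the same loops, such as windows of 1 kb and 5 kb at MIPOL1 (65 loops). At FOXA1 a window of 5 kb, the starts of all transcripts and whole 5 kb bins took the same 63 loops. The 51 are thus not separate checks. One change with an interval clear of 0 turned its sign: the 4 TTC6 loops past MIPOL1 changed by 1.49 in H3K27ac at 16 h, and without the 530 kb loop by -0.054 (-1.77 to 1.75). The H3K4me3 changes at 16 h of FOXA1 (0.02) and TTC6 (-0.03), whose intervals held 0, lay on either side of it, from -0.11 to 0.19 and from -0.16 to 0.05. With equal totals the H3K27ac log2 change at 16 h was 0.47 at FOXA1, 0.87 at MIPOL1 and 0.44 at TTC6. With loops of 20 kb or more, or without loops between neighbouring bins (chosen after seeing the data), it was 0.34 at FOXA1 and 0.34 at TTC6. With starts of all MIPOL1 transcripts it was 0.25 over 95 loops. With a 1.5-fold limit 17 of 31 member loops were higher in H3K27ac (54.8%, against 35.2% of all loops) and 4 of 8 in H3K4me3 (50%, against 18.7%). With at least 50 read pairs 3 of 15 were (20%, against 26.1%, so that the share lay below that of all loops) and 0 of 5 (against 1.92%). With 20 read pairs at 0 m alone, 2 of 12 were higher in H3K27ac at 16 h (16.6% of all loops) and 3 of 4 in H3K4me3 at 4 h (3.17%). Both this minimum and leaving out the 530 kb loop were chosen after seeing the data. A window of 1 kb held no anchor of FOXA1 or TTC6. Taking whole 5 kb bins was also added after seeing the data. H3K4me3 depth limits FOXA1 most, at 151 read pairs at 0 m.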
